A study of Arabidopsis thaliana with 20 samples.

Results

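SHY2 (SHORT HYPOCOTYL 2, also IAA3; AT1G04240) is an Aux/IAA protein, a repressor of auxin-responsive transcription, and its transcript was followed across all 10 groups of the study. The deposited array files carry no gene names. The probe of SHY2 was found as the single spot at which the differences between the 7 mutants and wild type (WT) in the deposited log2 table matched the row of SHY2 in the study's gene table within 0.0005, and these values served for its identity only. The match was 1 gene, with 1 probe (A_84_P21812) on 1 spot, of 2072 genes paired with a probe and 43603 probes on the array. The matching spot lay at a distance of 2.6e-05 and the next nearest spot at 0.142.

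Aux/IAA proteins bind auxin response factors (ARFs) and hold auxin-responsive genes silent, and auxin removes them by joining them to the TIR1/AFB receptors, which mark them for degradation. In the root, SHY2 is known from the zone where cells leave the meristem, where the cytokinin (CK) pathway turns the gene on through type-B ARRs and the SHY2 protein lowers the expression of PIN auxin carriers. Type-B ARRs are the DNA-binding response regulators at the end of the cytokinin phosphorelay, and ARR1, ARR10, and ARR12 are those removed here. In the RefSeq table (TAIR10.1), SHY2 lies on chromosome 1, and the next protein-coding gene on one side is AXR3, which encodes IAA17, another Aux/IAA protein.

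Total RNA from roots of 10-day-old Col-0 seedlings was labelled with Cy3 and hybridized to one-colour Agilent arrays, with 2 biological replicates per group and 20 arrays. The untreated groups were arr1/10/12, arr1/10, arr1/12, arr10/12, arr1, arr10, arr12, and WT, where the mutants carry the T-DNA insertion alleles arr1-3, arr10-5, and arr12-1, alone or combined, and each genotype is 1 allele per gene. The treated groups were WT given 5 μM N6-benzyladenine (BA), a synthetic cytokinin, for 1 hour (CK-treated) and WT given mock treatment for the same time. Whole roots were cut at the hypocotyl junction, so fewer cells that express SHY2 and less SHY2 RNA per cell cannot be told apart.

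All arrays had 71.8% to 78.8% of their probes well above background. Testing with limma, in 1 fit over the 10 groups, covered the 34034 probes that stood well above background in some group on both of its arrays. A difference is called here where its p after Benjamini-Hochberg adjustment, over all probes of that comparison, was under 0.05. The untreated arrays of replicate 1 shared a slide, and those of replicate 2 shared a second slide. Each mock-treated and CK-treated array lay on a slide apart from them and from each other. Slide and treatment therefore cannot be told apart for CK against mock, nor for mock against untreated WT.

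The deleted genes were read first, as a check of the labels. ARR1 had a log2 signal of 7.58 and 7.74 on the arr1/10/12 arrays, of 7.83 and 7.94 on those of arr1/12, and of 8.14 and 8.28 on those of arr1/10, against 11.99 and 12.01 in WT. On the arrays labelled arr1, ARR1 read 12.27 and 12.52, which is above both WT arrays (log2 difference 0.40, adjusted p = 0.209 from limma). These arrays therefore show no loss of the ARR1 signal, and every SHY2 value given for arr1 is that of the arrays labelled arr1. Where the probe lies relative to the insertion is not known here. With the same probe, ARR1 was lower than WT by log2 differences of −3.79 in arr1/10, −4.12 in arr1/12, and −4.34 in arr1/10/12. These mutants are described as carrying the same ARR1 allele as arr1. Why the arrays labelled arr1 differ from them was not tested. ARR10 was lower than WT by a log2 difference of −5.35 in arr10, and ARR12 by −6.81 in arr12, and both also fell in each double mutant that lacks them and in arr1/10/12 (adjusted p of at most 1.07e-07 for these 6). In arr1/10/12, ARR12 was not well above background on either array.

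Next, 5 genes that mark root cell types and could be paired with a probe were read as a check of the tissue. EXPA7, EXPA18, and RSL4, which act in root hairs, IRT1, the iron transporter of the root epidermis, and SKOR, a potassium channel of the stele, were well above background on all 20 arrays. Their log2 signals ranged from 7.68 for SKOR to 13.76 for EXPA7 over the 20 arrays.

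SHY2 was well above background on all 20 arrays, and its spot was never marked as an outlier or as saturated. Its lowest readings were those of arr1/10/12, where the processed signal of the spot was 112.0 and 106.9, over a local background of 26 and 22. In WT the processed signal was 1802 and 1732. After quantile normalization the log2 signal of SHY2 was 7.11 and 7.60 in arr1/10/12, against 11.09 and 11.11 in WT.

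Among the double mutants, SHY2 read 10.21 and 10.42 on the arrays of arr1/12, 10.57 and 10.71 on those of arr10/12, and 10.65 and 10.77 on those of arr1/10. Among the single mutants, it read 10.54 and 10.89 in arr12, 10.79 and 10.91 in arr1, and 10.85 and 11.05 in arr10. All 14 arrays of the mutants lay below both WT arrays, with the 2 arrays of arr1/10/12 far below the other 12. With CK, SHY2 read 12.72 and 12.70, against 10.89 and 10.90 with mock treatment, and these were the highest of the 20 arrays.

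**Figure D1:**
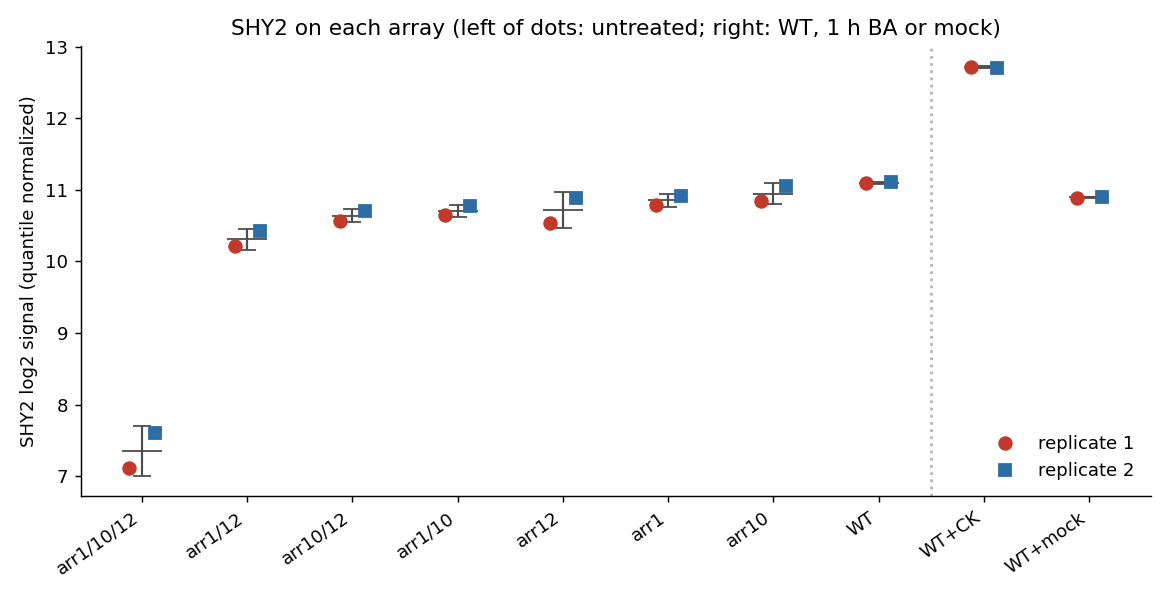
Log2 signal of SHY2 after quantile normalization (y axis) on each of the 20 arrays, by group (x axis), with circles for replicate 1, squares for replicate 2, and a dash with bars for the group mean and SD of 2 arrays. The arr1/10/12 arrays sit at 7.11 and 7.60, the other mutants between 10.21 and 11.05, and the CK-treated arrays at 12.72 and 12.70.

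From low to high, the group means were 7.35 ± 0.35 in arr1/10/12, 10.31 ± 0.15 in arr1/12, 10.64 ± 0.093 in arr10/12, 10.71 ± 0.084 in arr1/10, 10.72 ± 0.25 in arr12, 10.85 ± 0.088 in arr1, 10.90 ± 0.0091 in mock-treated WT, 10.95 ± 0.14 in arr10, 11.10 ± 0.017 in WT, and 12.71 ± 0.014 in CK-treated WT (SD, n = 2 each). Of the 9 steps between neighbours in this order, 2 had a 95% confidence interval that excluded 0. These were the step between arr1/10/12 and arr1/12, a gap of 2.96, and the step between CK-treated WT and untreated WT, a gap of 1.61 (standard error 0.156 for both). This error comes from 1 spread shared by all 10 groups, although their SDs ran from 0.0091 in mock-treated WT to 0.35 in arr1/10/12. The other 7 neighbours did not differ beyond the error of the fit, although the arrays of arr1/12 and arr10/12, and those of arr10 and WT, did not overlap. In all 8 untreated groups, replicate 2 read higher than replicate 1.

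Without any of the 3 ARRs, SHY2 fell to 7.45% of its WT signal. The log2 difference between arr1/10/12 and WT was −3.75 (95% confidence interval −4.09 to −3.41, adjusted p = 2.73e-09 from limma), a signal 13.4-fold lower (10.6 to 17.0). It was −3.22 with normexp, another background correction, and −3.34 in the authors' value table. Both values lie outside this interval, which covers the error of the fit and not the choice of processing. Within each slide the difference was −3.98 for replicate 1 and −3.51 for replicate 2. In this comparison 54.4% of the tested probes were called, and 31.1% were called lower, so a call alone sets SHY2 apart little. Its difference stood at rank 178 from the lowest of 34034 probes, whose median difference was −0.08.

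The root cell type markers also had other levels in arr1/10/12. Over the 5 markers, the mean log2 signal per array was 10.72 to 11.33 in arr1/10/12, against 12.02 to 12.45 in WT. The differences were −1.77 for EXPA7, −1.88 for EXPA18, −1.44 for RSL4, and −2.44 for IRT1, while SKOR was higher by 1.50. All 5 came from the gene table of the study, which holds mostly genes it had called lower in a mutant. The part of cell composition in the SHY2 value was not tested.

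Of the double mutants, arr1/12 had the lowest SHY2 and the only call. SHY2 fell by 0.79 on the log2 scale relative to WT (95% confidence interval −1.13 to −0.45, adjusted p = 0.0226 from limma), to 57.9% of the WT signal. The difference within a slide was −0.88 for replicate 1 and −0.70 for replicate 2. In this comparison 2.8% of the tested probes were called, and 1.37% were called lower. The call rested on every one of its 4 arrays, since the adjusted p was 0.0592 to 0.118 with 1 of them left out, and it was also lost within the untreated arrays alone (0.0537) and in a fit of the 4 arrays alone (0.106). With a replicate block, which pairs the arrays of a slide, it was 0.00218.

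The 5-marker mean was 11.56 to 11.62 per array in arr1/12, against 12.02 to 12.45 in WT. The log2 differences were −0.63 for EXPA7, −0.66 for EXPA18, −0.75 for RSL4, −1.15 for IRT1, and −0.03 for SKOR. In mock-treated WT, on other slides, the mean was 11.05 to 11.50. The part of cell composition in the SHY2 value was not tested here either.

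In arr10/12 the log2 difference of SHY2 from WT was −0.46 (−0.80 to −0.12, adjusted p = 0.194 from limma), with 0.306% of probes called. In arr1/10 it was −0.39 (−0.73 to −0.05, adjusted p = 0.19 from limma), with 0.964% called. Neither passed the threshold, and each interval is for 1 comparison without adjustment over probes. With a replicate block for the untreated arrays both passed, with adjusted p = 0.0408 in arr10/12 and 0.0430 in arr1/10, and with the block over all 20 arrays neither did (0.0627 and 0.0660). The block for the untreated arrays also took the number of probes called to 948 in arr10/12, against 104 without it, and to 2212 in arr1/10, against 328 without it.

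SHY2 was not called in any single mutant. The log2 difference was −0.38 in arr12 (−0.72 to −0.05, adjusted p = 0.441 from limma), −0.25 in arr1 (−0.59 to 0.09, adjusted p = 0.623), and −0.15 in arr10 (−0.49 to 0.19, adjusted p = 0.862). The shares of probes called were 0.126%, 0.0999%, and 0.0441%, in the same order. The intervals leave room for a SHY2 signal as much as 0.72 lower on the log2 scale in arr12, 0.59 in arr1, and 0.49 in arr10.

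**Figure D2:**
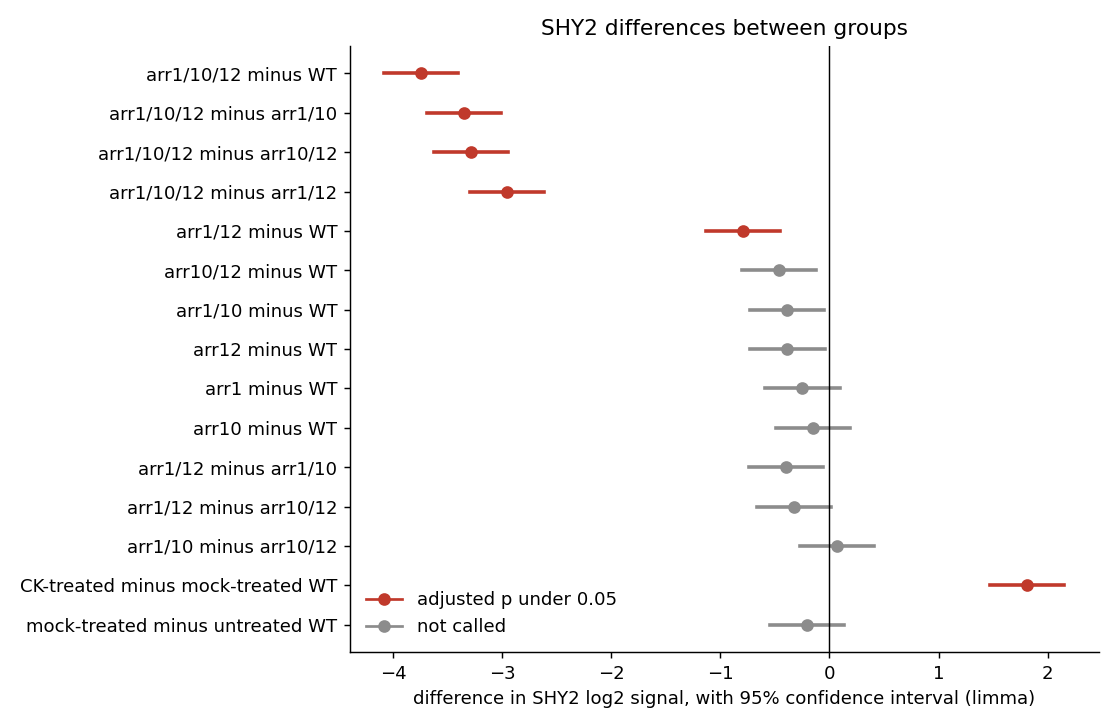
Differences in SHY2 log2 signal (x axis) for 15 comparisons (y axis), where points are the limma estimates, lines are 95% confidence intervals, and red marks an adjusted p under 0.05. The 4 comparisons that hold arr1/10/12 lie between −3.75 and −2.96, arr1/12 minus WT at −0.79, and CK-treated minus mock-treated WT at 1.82.

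The doubles and the triple mutant were then set against each other, which asks what the loss of the last of the 3 ARRs adds. Relative to arr1/10, SHY2 fell by 3.35 in arr1/10/12 (95% confidence interval −3.69 to −3.02, adjusted p = 8.35e-09 from limma), with 54.5% of probes called. Relative to arr10/12 it fell by 3.29 (−3.63 to −2.95, adjusted p = 8.92e-09 from limma), with 55.3% called. Relative to arr1/12 it fell by 2.96 (standard error 0.156, adjusted p = 2.49e-08 from limma), with 53.4% called. The signal was thus 10.2-fold, 9.75-fold, and 7.77-fold lower than in these doubles (95% confidence intervals 8.09 to 12.9, 7.71 to 12.3, and 6.14 to 9.83), and no array of arr1/10/12 came within the range of any double mutant. As ratios of signal, each of these differences exceeded that of any double mutant from WT. Over 32 alternative treatments of the data, the log2 differences were −3.60 to −2.85, −3.53 to −2.82, and −3.20 to −2.50, in the same order. The weakest value of each lay outside the 95% confidence interval of the main fit.

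Between the double mutants no difference was called. The arr1/12 signal was 0.40 below that of arr1/10 on the log2 scale (−0.74 to −0.06, adjusted p = 1.00 from limma, 0.212% of probes called) and 0.33 below that of arr10/12 (−0.67 to 0.01, adjusted p = 0.945, 0.479% called). Between arr1/10 and arr10/12 the difference was 0.07 (−0.27 to 0.41, adjusted p = 1.00, 0.244% called). Thus a SHY2 level lower in arr1/12 than in the other two doubles was seen on both arrays but did not hold against adjustment over all probes.

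Setting each double mutant against its singles asks what a second loss adds. None of these 6 differences was called for SHY2. The widest was arr1/12 minus arr1, at −0.54 (−0.88 to −0.20, adjusted p = 0.181 from limma, 0.432% of probes called), which passed with a replicate block for the untreated arrays (adjusted p = 0.0334) and with array weights (0.0209). It was followed by arr1/12 minus arr12 at −0.40 (0.708% called), arr10/12 minus arr10 at −0.31 (0.153% called), arr1/10 minus arr10 at −0.24 (0.599% called), arr1/10 minus arr1 at −0.14 (0.188% called), and arr10/12 minus arr12 at −0.08 (0.0911% called). Their adjusted p ranged from 0.382 to 0.949. The differences from arr1 use the arrays labelled arr1, which show no loss of the ARR1 signal.

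The differences from WT were also set against the sums of those of the smaller mutants, which asks whether losses add up on the log2 scale. For the double mutants they did so within the error. The measured difference minus the sum of the 2 singles was 0.01 for arr1/10 (−0.47 to 0.49, 0.159% of probes called), −0.16 for arr1/12 (−0.64 to 0.32, 0.109% called), and 0.08 for arr10/12 (−0.40 to 0.56, 0.0735% called), with adjusted p from 0.850 to 0.990 in limma. These intervals are wide next to the differences themselves. The sums for arr1/10 and arr1/12 use the arrays labelled arr1, which show no loss of the ARR1 signal. The sum for arr10/12 does not use them.

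In arr1/10/12 the measured −3.75 lay far below each sum. The sum of the 3 singles was −0.78, and the measured value was lower than it by a log2 difference of −2.96 (−3.64 to −2.28, adjusted p = 4.23e-05 from limma), with 30.3% of probes called. Against the sum of arr1/10 and arr12, −0.78, the difference was −2.97 (adjusted p = 1.21e-06 from limma, 43.3% called). Against the sum of arr1/12 and arr10, −0.94, it was −2.81 (adjusted p = 1.82e-06 from limma, 42.2% called). Against the sum of arr10/12 and arr1, −0.71, it was −3.04 (adjusted p = 9.84e-07 from limma, 41.5% called). The second and the third of these do not use the arrays labelled arr1.

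**Figure D3:**
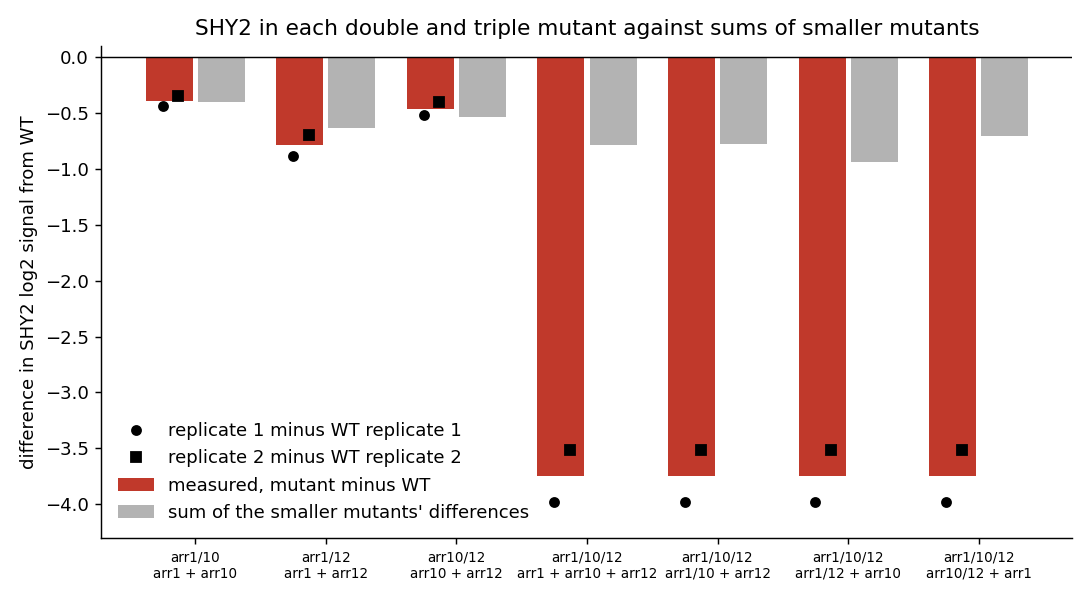
Difference of SHY2 log2 signal from WT (y axis) in each double mutant and in arr1/10/12 (red bars, with a circle and a square for the difference within replicate 1 and within replicate 2) beside the sum of the differences of the smaller mutants named below each pair (grey bars). The bars match closely for the 3 double mutants, and in arr1/10/12 the measured −3.75 stands beside sums between −0.94 and −0.71. The sums that name arr1 use the arrays labelled arr1, which show no loss of the ARR1 signal.

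SHY2 was higher after 1 hour of CK than after mock treatment, in a comparison where slide and treatment cannot be told apart. CK-treated WT exceeded mock-treated WT by a log2 difference of 1.82 (95% confidence interval 1.48 to 2.15, adjusted p = 1.92e-05 from limma), a 3.52-fold higher signal (2.78 to 4.45). The difference was 1.83 between the arrays of replicate 1 and 1.80 between those of replicate 2, and the processed signals were 7907 and 6214 with CK, against 2242 and 1679 with mock treatment. In this comparison 6.58% of the tested probes were called, and 3.54% of the tested probes were called higher. SHY2 stood at rank 208 from the highest. The mean of the 5 root markers was 11.27 to 11.28 per array with CK, against 11.05 to 11.50 with mock treatment. Within that mean the log2 differences went both ways, at 0.28 for EXPA7, 0.39 for EXPA18, 0.79 for RSL4, 0.08 for IRT1, and −1.54 for SKOR, and their part in the SHY2 value was not tested.

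The comparison of mock-treated with untreated WT gave no call for SHY2. Mock-treated WT differed from untreated WT by −0.20 (−0.54 to 0.14, adjusted p = 0.447 from limma), in a comparison where 15.8% of probes were called. Of all tested probes, 697 were called lower in arr1/10/12 and higher with CK, as SHY2 was. Only 23 probes, SHY2 included, were at least as low relative to WT in arr1/10/12 and at least as high relative to mock with CK.

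The rest of the auxin pathway was read through lists of its gene families. A gene could be paired with a probe only if the copy of the study's gene table at hand held it, and that table lists genes the study had called on these same arrays, mostly as lower in a mutant. Counts over these members are therefore no independent evidence of their direction. Of 29 Aux/IAA genes, 8 could be paired, which were SHY2, IAA5, IAA6, IAA8, IAA10, IAA13, IAA17, and IAA31, and all 8 were tested. All encode repressors of the same family as SHY2.

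In arr1/10/12, all 8 paired Aux/IAA genes were called lower than in WT, where 31.1% of all tested probes were. Their median log2 difference was −1.93, against −0.08 over all tested probes. IAA6 was not well above background on either array of arr1/10/12, and its signal was at least 14.4-fold lower than in WT (adjusted p = 3.45e-10 from limma). This bound sets the WT mean against the dimmest signal well above background on each arr1/10/12 array. Its size depended on the background treatment, with log2 differences of −1.55 after normexp, another background correction, and −1.88 in the authors' value table, beside −3.22 and −3.34 for SHY2. The log2 differences of the others were −2.58 for IAA31, −2.17 for IAA5, −1.69 for IAA17, −1.58 for IAA13, −1.14 for IAA10, and −0.99 for IAA8. Of these, IAA5 was at −1.52 with normexp and −1.66 in the authors' value table. Thus the neighbour of SHY2 on the chromosome, IAA17, fell as well, with 11.76 and 12.17 in arr1/10/12, against 13.55 and 13.76 in WT.

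In arr1/12, 3 of the 8 were called, all lower, where 1.37% of all tested probes were called lower. IAA5 read 6.87 and 6.78 in arr1/12, against 7.82 and 8.25 in WT, a log2 difference of −1.20 (adjusted p = 0.00570 from limma). IAA6 read 6.27 and 6.12 in arr1/12, against 7.09 and 7.19 in WT, a difference of −0.94 (adjusted p = 0.00383). SHY2 was the third, and the median of the 8 was −0.62, against −0.01 over all tested probes. In arr1/10, arr10/12, and the single mutants, none of the 8 was called, and with a replicate block for the untreated arrays 2 were called lower in arr1/10 and 1 in arr10/12. That block called 2212 of all 34034 tested probes in arr1/10 and 948 in arr10/12, against 328 and 104 without it. IAA5 in arr1/10, at −0.83 (adjusted p = 0.0503), also passed under each of the 3 other scalings or background treatments tried.

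With CK, 3 of the 8 were called, all higher, where 3.54% of all tested probes were called higher. IAA5 read 9.69 and 9.58 in CK-treated WT, against 7.28 and 7.73 in mock-treated WT, a log2 difference of 2.13 (adjusted p = 1.42e-05 from limma). IAA17 read 14.10 and 14.16 in CK-treated WT, against 13.16 and 13.44 in mock-treated WT, a difference of 0.83 (adjusted p = 0.00243). The others ranged from −0.28 for IAA13 to 0.41 for IAA31 and did not pass, with a median over the 8 of 0.39, against 0.03 over all tested probes. IAA13 was, however, called lower with CK after normexp (−0.43, adjusted p = 0.0108 from limma) and in the authors' value table (−0.43, adjusted p = 0.0132). Mock-treated WT was itself lower than untreated WT for 6 of the 8, and 1 was called, where 15.8% of all tested probes were. This was IAA31, at −2.13 (adjusted p = 4.17e-04 from limma). SHY2 and IAA5 were the 2 members called in all 3 of arr1/10/12, arr1/12, and CK. The share of all tested probes called in all 3 was not counted, and in arr1/10/12 alone 31.1% were called lower. The arr1/12 call of SHY2 was lost within the untreated arrays alone and in a fit of the arr1/12 and WT arrays alone.

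**Figure D4:**
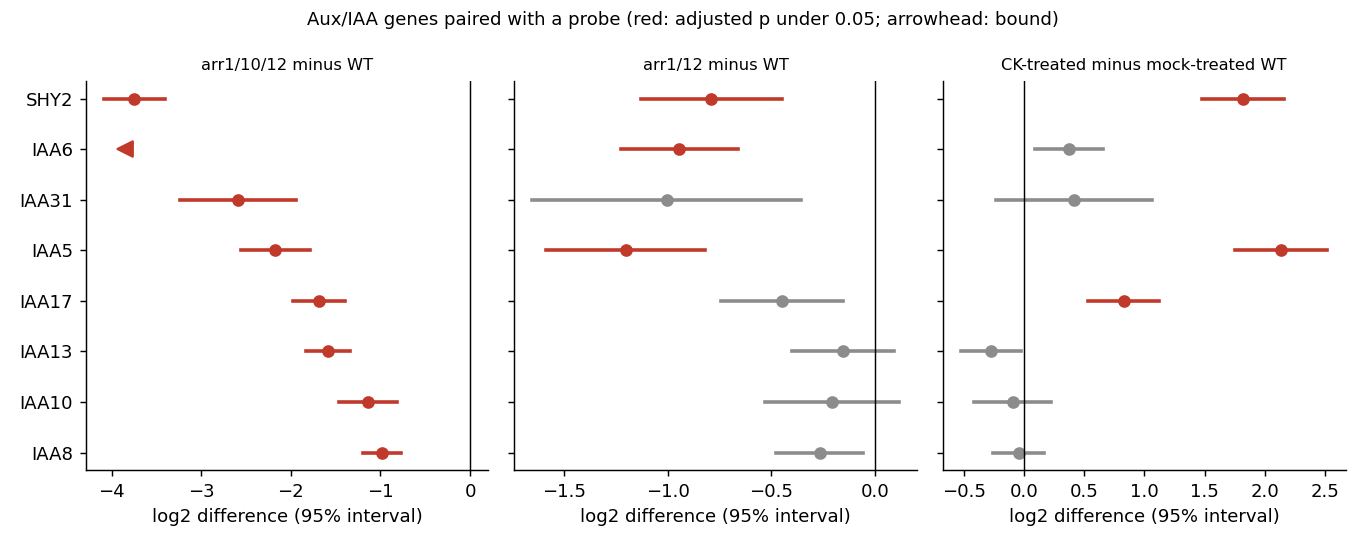
Log2 differences (x axes) of the 8 Aux/IAA genes paired with a probe (y axis) in arr1/10/12 minus WT, arr1/12 minus WT, and CK-treated minus mock-treated WT, with 95% confidence intervals from limma, red for an adjusted p under 0.05, and an arrowhead for a bound. All 8 lie below 0 in arr1/10/12, and SHY2 and IAA5 pass in all 3 panels, at −3.75, −0.79, and 1.82 for SHY2 and −2.17, −1.20, and 2.13 for IAA5. The arr1/12 call of SHY2 was lost within the untreated arrays alone.

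None of the 6 TIR1/AFB auxin receptors could be paired with a probe. Of 16 ARFs, the partners of the Aux/IAA proteins, only ARF20 was paired, and it was lower in arr1/10/12, where it was not well above background, than in WT by at least 6.04-fold (adjusted p = 8.66e-07 from limma). That bound did not hold under the other background treatments, which gave log2 differences of −0.69 with normexp (adjusted p = 1.50e-04) and −0.92 in the authors' value table (adjusted p = 4.53e-05). Of 12 auxin transporters, PIN6 and LAX3 were paired, and both fell in arr1/10/12 relative to WT. PIN6, an auxin efflux carrier, read 5.56 and 4.23 in arr1/10/12, the second not well above background, against 7.05 and 7.21 in WT (adjusted p = 5.32e-05 from limma). Its log2 difference was −1.04 with normexp and −1.25 in the authors' value table, and −2.90 to −1.57 with 1 array left out. LAX3, an auxin influx carrier, had a log2 difference of −2.39 in arr1/10/12 (adjusted p = 7.86e-10 from limma). LAX3 read 14.56 and 14.54 in CK-treated WT, against 14.18 and 14.17 in mock-treated WT, a log2 difference of 0.37 (adjusted p = 0.0191) that did not pass in the authors' value table (0.0540). Mock-treated WT was itself lower than untreated WT, at 14.45 and 14.54, by a log2 difference of −0.32 (adjusted p = 0.0242), so the CK arrays lay at the level of untreated WT or just above it.

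GH3.1, of a family of enzymes that conjugate auxin to amino acids, was the 1 of 6 GH3 genes paired. It rose in arr1/12 relative to WT by a log2 difference of 0.68 (adjusted p = 0.0327 from limma), which did not pass in the authors' value table (0.0524), and it fell with CK relative to mock by 0.67 on the log2 scale (adjusted p = 0.0152). In arr1/10/12 its difference from WT was 0.13 (adjusted p = 0.496), and relative to arr1/12 it fell by 0.55 on the log2 scale (adjusted p = 0.00662). The differences from WT of 0.81 in the arrays labelled arr1 (adjusted p = 0.0921) and of 0.64 in arr1/10 (0.0599) did not pass, but both passed with scaling to the 75th percentile (0.0313 and 0.0238) and with a replicate block for the untreated arrays. It was also higher in mock-treated than in untreated WT, by 1.11 (adjusted p = 2.67e-04), where slide and treatment cannot be told apart.

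Of 20 genes of cytokinin synthesis and signalling, 9 were paired. They were WOL, a cytokinin receptor, and the type-A regulators ARR3, ARR4, ARR5, ARR6, ARR7, ARR15, ARR16, and ARR17, which act as feedback inhibitors of the pathway. All 9 were called lower in arr1/10/12 than in WT, where 31.1% of all tested probes were. The 9 were paired through the same gene table, so this count is no independent evidence of their direction. Their median log2 difference was −3.23 (−3.19 with the 3 that were not well above background taken at their bounds), against −0.08 over all tested probes. The median was −3.07 with scaling to the 75th percentile, −2.55 with normexp, and −2.60 in the authors' value table. All 9 were called higher with CK, where 3.54% of all tested probes were, with a median of 2.63, against 0.03 over all tested probes. Mock-treated WT was itself lower than untreated WT for 8 of the 9, and 4 were called. The median of that difference was −0.78, against −0.03 over all tested probes, of which 15.8% were called. Its part in the CK differences was not tested. The −3.75 of SHY2 in arr1/10/12 stood beside the −4.84 of ARR7 and the −3.69 of ARR6, although ARR6 had the lower value of SHY2 and ARR6 with normexp (−3.37) and in the authors' value table (−3.45), and its 1.82 with CK lay beside the 1.81 of ARR4.

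In arr1/12, 5 of the 9 were called lower, where 1.37% of all tested probes were, and these were ARR5 at −0.86, ARR7 at −0.76, and ARR15 at −1.57, together with ARR16 and ARR17, which were not well above background there. In arr1/10, ARR5 at −1.09, ARR7 at −1.08, and ARR16 at −2.12 were called lower, and ARR16 was at −1.31 with normexp. In that comparison 0.964% of all tested probes were called in either direction, and 150 of 34034 were called lower. In arr10/12, with 0.306% called, none of the 9 was called, as was the case for SHY2, although ARR16 passed with normexp (−0.77, adjusted p = 0.0444) and in the authors' value table (−0.86, adjusted p = 0.0442). In the arrays labelled arr1, with 0.0999% called in either direction and 18 of 34034 probes called lower, ARR7 was the 1 member called. It was lower by a log2 difference of −0.83, and it did not pass with scaling to the 75th percentile (adjusted p = 0.0619). With a replicate block for the untreated arrays, 7 of the 9 were called lower in arr1/12, 6 in arr1/10, 2 in arr1, and 0 in arr10/12. That block called 2732, 2212, 346, and 948 of all 34034 tested probes, in the same order. Without it, 952, 328, 34, and 104 probes were called.

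The genes with the pattern most like that of SHY2 were taken from the 2022 other paired genes whose probe was tested, by Pearson's r between group means. This is a description, since the points share arrays, slides, and the processing, and since the paired genes were largely chosen by the study for lower levels in a mutant. Over all 10 groups, r was 0.997 for AT1G62975, 0.991 for AT4G25410, 0.989 for SDR2, 0.985 for IDL5, and 0.985 for ROXY2. In all, 235 of the 2022 genes had r over 0.9, and the median was 0.68.

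AT1G62975 followed SHY2 most closely, at 9.26 and 9.30 in arr1/10/12, against 12.65 and 12.90 in WT. With CK it read 14.41 and 14.43, against 12.58 and 12.89 with mock treatment. Its log2 differences were −3.50 in arr1/10/12, −0.61 in arr1/12, and 1.68 with CK, beside −3.75, −0.79, and 1.82 for SHY2. IDL5, a relative of the abscission peptide IDA, had −3.22 in arr1/10/12 and 1.15 with CK. SDR2, annotated as a short-chain dehydrogenase/reductase, read 5.75 and 7.68 in arr1/10/12, against 10.13 and 10.59 in WT, so its difference rests on arrays far apart, at −4.61 to −2.68 with 1 array left out. With CK its difference was 1.21, which was not called (adjusted p = 0.126 from limma). AT4G25410 and ROXY2 were not well above background in arr1/10/12, so their size there is not given.

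Since arr1/10/12 alone weighs heavily in such a correlation, it was repeated over the other 9 groups. The 5 genes then were AT2G17660 (r = 0.991), AT1G62975 (0.987), AT5G27260 (0.984), AT5G51780 (0.983), and AT1G58170 (0.983). Here 81 genes had r over 0.9 and the median was 0.035. Among these 9 groups CK-treated WT stood apart, with a SHY2 mean of 12.71, against 10.31 to 11.10 in the others. This r therefore rests largely on the CK-treated group and says little about likeness among the mutants. AT1G62975 was thus the 1 gene named both ways. AT2G17660, first in this order, had a group mean of 7.42 in arr1/10/12 and of 7.42 in arr1/12, against 8.42 in WT, so it did not share the further step of SHY2 in arr1/10/12.

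**Figure D5:**
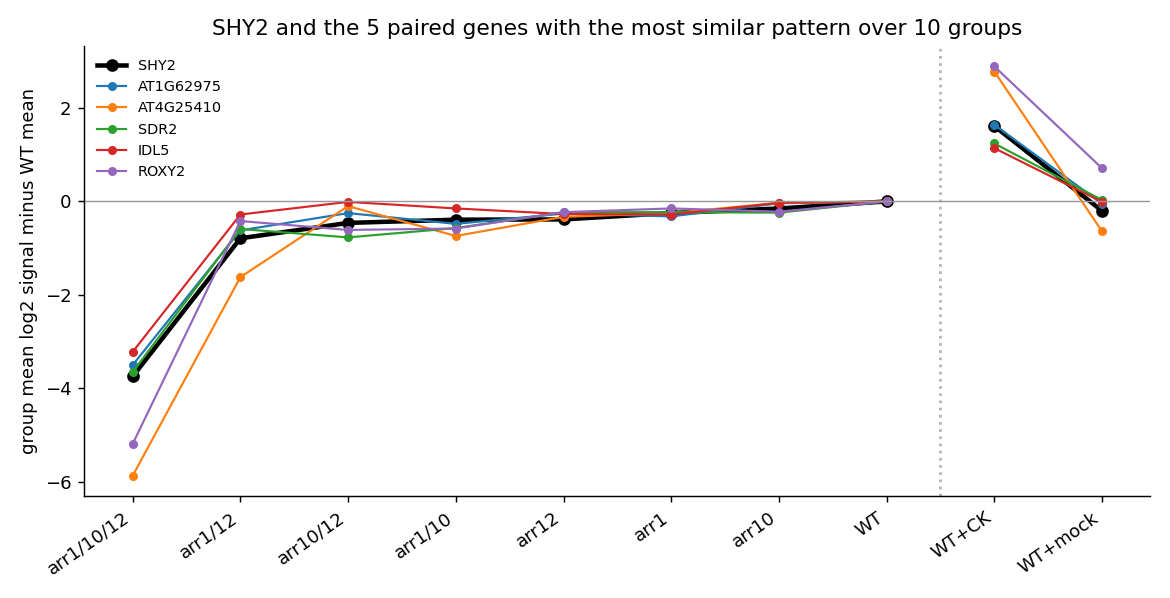
Group mean log2 signal minus the WT mean (y axis) by group (x axis) for SHY2 (thick black line) and the 5 paired genes with the highest Pearson's r over 10 groups. AT1G62975 lies close to SHY2 in all groups (−3.50 and −3.75 in arr1/10/12), and AT4G25410 and ROXY2, drawn at their measured values, were not well above background in arr1/10/12.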

How the data were processed

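For each array the authors deposited the scanner output, with the background-subtracted intensity of each spot, which was not normalized between arrays. A second deposited table holds log2 values. These could be rebuilt by quantile normalization of median pixel intensities on the log2 scale, in which untreated and treated arrays had been kept separate (no value off by more than 5e-09). From the deposited intensities, log2 values of the 61657 non-control spots were quantile normalized across the 20 arrays, outliers (1 to 386 spots per array) were dropped, and spots were averaged by probe. None was saturated. Comparisons were contrasts of 1 fit in limma 3.58.1 (R 4.3.3; lmFit and eBayes, 10 residual and 2.11 prior degrees of freedom). The standard error of a SHY2 difference between 2 groups was 0.156, and 2 arrays per group limit the precision. An exact permutation test of 2 arrays against 2 cannot go below p = 0.333. The fit was tested on simulated data.

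Through the study's gene table, 2072 genes were each paired with 1 spot (largest distance 5e-05, next spot at least 0.0227 away). Of these, 2052 loci were in the RefSeq table. The files' header names another build than that table, so no coordinates are given. SHY2, the deleted ARRs, all paired list members, and the 5 most similar genes per measure are named, and the root markers were chosen after the data were seen. The members and lists were chosen with earlier results of these data known. As a check of pairing by replicate number, each replicate 1 array was expressed as its deviation from the mean of its group, and deviations were correlated between groups. Pearson's r across probes was 0.17 to 0.52 in the 28 pairs of untreated groups, which share a slide and a scan day by number, so the numbers pair these arrays. It was 0.30 between mock-treated and untreated WT, and −0.04 between mock-treated and CK-treated WT. The groups of these last pairs share a scan day by number but no slide. The part of the slide in r was not tested. Alternatives were 75th percentile scaling, normexp background correction (offset 50), the authors' value table, 2 other filters, replicate blocks, subsets of the arrays, array weights, the methods' t-test, and leaving out each array. The integrative test of the study was not run. Figures were drawn in matplotlib 3.10.9 under Python 3.11.15.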

Additional observations from a re-analysis of the deposited data

Results flagged for a closer look

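The difference of SHY2 from WT in arr1/10/12 departed from what its smaller mutants summed to, by a test of the departure itself (limma contrasts of the fit over 20 arrays). The departure was −2.96 from the sum of the single mutants (adjusted p = 4.23e-05), −2.97 from that of arr1/10 and arr12 (1.21e-06), −2.81 from that of arr1/12 and arr10 (1.82e-06), and −3.04 from that of arr10/12 and arr1 (9.84e-07). It was seen on both slides, with −2.89 and −3.03 for the single mutants, −2.99 and −2.95 for arr1/10 and arr12, −2.86 and −2.75 for arr1/12 and arr10, and −3.17 and −2.91 for arr10/12 and arr1 (replicate 1 and replicate 2). The sums share the WT arrays and the arr1/10/12 arrays, so these 4 values are not independent of each other, and 30.3% to 43.3% of all tested probes were called in the same contrasts.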

How the results depend on the processing

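The fall of SHY2 in arr1/10/12 and its rise with CK kept their direction under all 32 alternatives, with log2 differences of −3.99 to −3.22 and 1.79 to 1.83. For arr1/10/12, the values were −3.22 with normexp and −3.34 in the authors' value table, and the cause was not tested. Both passed in all but the methods' t-test after Benjamini-Hochberg adjustment, which gave adjusted p = 0.0778 for −3.75 in arr1/10/12 minus WT and 0.0898 for 1.82 with CK. The same holds for arr1/10/12 minus arr1/10 (−3.35, 0.0697), arr1/12 (−2.96, 0.0800), and arr10/12 (−3.29, 0.0660). The 4 departures from sums passed under all 30 alternatives run.

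The arr1/12 difference from WT lost its call within the untreated arrays (−0.79, adjusted p = 0.0537), on its 4 arrays alone (−0.79, 0.106), in the adjusted t-test (−0.79, 0.430), and without WT replicate 1 or 2 or arr1/12 replicate 1 or 2 (values −0.89 to −0.68). With the replicate block for the untreated arrays, calls were gained for arr1/10 minus WT (−0.39, adjusted p = 0.0430), arr10/12 minus WT (−0.46, 0.0408), and arr1/12 minus arr1 (−0.54, 0.0334), the last also with array weights (−0.54, 0.0209). The block over all 20 arrays, chosen after seeing the data, gained none of these. The replicate block changed no other SHY2 call. Without adjustment over probes, the methods' t-test also passed for arr1/10 minus WT (−0.39), arr10/12 minus WT (−0.46), arr1/12 minus arr1 (−0.54), and mock-treated minus untreated WT (−0.20).

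Differences near 0 changed sign without passing a test. For arr1/10 minus the sum of its singles the value was −0.015 with normexp, −0.016 in the authors' value table, and −0.093 to 0.11 with 1 array left out. The ranges with 1 array left out were −0.34 to 0.023 for arr1/12 minus its sum, −0.10 to 0.26 for arr10/12 minus its sum, and −0.25 to 0.10 for arr10/12 minus arr12. The causes were not tested. The SHY2 probe has 1 spot, so no value by spot could be given, and the authors' value table and the fits within each experiment give no mock-treated minus untreated value. The files used here hold no mean pixel signal, so normexp used the median.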
